A study of Mus musculus with 2 samples.

Results

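Cycling keratinocytes are the dividing epidermal cells of 2 single-cell RNA sequencing libraries made from DMBA-induced mouse skin tumours. A barcode was counted as one when it had at least 500 genes, at most 15% mitochondrial UMIs (unique molecular identifiers, each a captured transcript), at least 5000 UMIs and under 10% of UMIs from Gm42418. It also needed Krt5 and Krt14 together at 80 or more per 10000 UMIs, and Mki67 and Top2a together at 5 or more per 10000. In all, 1346 of 30298 barcodes met these limits, 562 of 22259 in Eed iKO-D and 784 of 8039 in Ctrl-D. They were set against non-cycling keratinocytes, the cells of the same filter with no UMI of Mki67 or Top2a, of which there were 522 in Eed iKO-D and 1684 in Ctrl-D. Since the cells were selected on their levels of Mki67, Top2a, Krt5 and Krt14, these genes, and every difference between cycling and non-cycling cells, are given as descriptions without a test.

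Eed iKO-D mice carried K14CrERT2, a tamoxifen-inducible Cre recombinase driven by the keratin 14 promoter, on an Eed flox/flox background, and received hydroxy-tamoxifen on the back skin for 4 days from postnatal day 50. Ctrl-D mice were Eed flox/flox without the Cre transgene and received ethanol, the solvent. Both groups were given the carcinogen DMBA weekly for up to 20 weeks and were 5 months old at collection, and viable cells were enriched with a dead cell removal kit. Each group is 1 library, and the number of mice or tumours behind it is not given in the labels, so genotype, Cre and tamoxifen cannot be told apart and no p-value is given. Intervals are 95% intervals and cover counting error only.

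In the epidermis, division is confined to cells at or near the basement membrane, which express Krt5 and Krt14, and cells that leave this layer stop dividing and switch on Krt1, Krt10 and then the proteins of the cornified envelope. A dividing cell switches on E2F targets to copy its DNA in S phase, and later the genes of mitosis, many of which the DREAM and MuvB-FOXM1 complexes control through a short promoter element, the cell cycle genes homology region (CHR), often beside CCAAT boxes. Eed belongs to the core of PRC2, the Polycomb complex that methylates histone H3 at lysine 27 and is known to silence the CDK inhibitor locus Cdkn2a. Ezh2, its catalytic subunit, is a known E2F target and is abundant in dividing cells.

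Promoters of 7 genes are shown because they belong to the groups described below. The sequences cover promoters with and without a CHR and an E2F match, and all of them hold a CCAAT box. Ube2c, Hmmr, Kif11 and Cenpe act in mitosis, Mcm5 and Mcm6 open DNA at replication origins, and Ezh2 belongs to PRC2. Sequences are from RefSeq on GRCm38.p6, run 5′ to 3′ on the gene's strand from 250 bases before to 50 bases after the gene's start, and carry in capitals the matches to CHR (TTTGAA), to the CCAAT box (CCAAT) and to E2F motifs (TTCCCGC or TTGGCGC), each searched on both strands. An E2F match of the form TTGGCGC shares bases with a CCAAT box when an A precedes it, which none of the matches shown does. Ube2c lies at chr2:164769679-164769978 (plus strand) and holds 1 CHR and 6 CCAAT matches, of which 2 overlap. Hmmr is at chr11:40733388-40733687 (minus strand) with 1 CHR and 5 CCAAT matches, and Kif11 at chr19:37376132-37376431 (plus strand) with 1 CHR and 1 CCAAT match. Cenpe, at chr3:135212313-135212612 (plus strand), holds 1 CCAAT match and no CHR. Of the 12 genes chosen as highest in cycling cells, 10 had a promoter in the table and 7 of these a CHR match; Ccnb1 had none, and Birc5 no match of any kind. Mcm5 occupies chr8:75109259-75109558 (plus strand) and Mcm6 chr1:128359656-128359955 (minus strand), with 2 E2F matches each beside 3 and 2 CCAAT matches and no CHR. The Ezh2 promoter, chr6:47594981-47595280 (minus strand), holds 1 E2F and 3 CCAAT matches and no CHR.
Ube2c: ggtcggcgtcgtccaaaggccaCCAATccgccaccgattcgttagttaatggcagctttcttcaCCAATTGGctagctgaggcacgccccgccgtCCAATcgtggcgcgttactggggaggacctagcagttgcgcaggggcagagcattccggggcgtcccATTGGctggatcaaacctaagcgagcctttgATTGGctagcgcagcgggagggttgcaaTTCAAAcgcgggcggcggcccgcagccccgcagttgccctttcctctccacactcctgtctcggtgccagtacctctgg
Hmmr: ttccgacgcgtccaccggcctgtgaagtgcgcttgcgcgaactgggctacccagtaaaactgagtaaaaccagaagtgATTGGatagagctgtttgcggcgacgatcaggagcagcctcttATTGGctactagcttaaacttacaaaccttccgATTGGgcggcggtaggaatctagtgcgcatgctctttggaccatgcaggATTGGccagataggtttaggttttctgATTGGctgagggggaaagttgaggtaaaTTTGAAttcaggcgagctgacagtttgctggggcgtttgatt
Kif11: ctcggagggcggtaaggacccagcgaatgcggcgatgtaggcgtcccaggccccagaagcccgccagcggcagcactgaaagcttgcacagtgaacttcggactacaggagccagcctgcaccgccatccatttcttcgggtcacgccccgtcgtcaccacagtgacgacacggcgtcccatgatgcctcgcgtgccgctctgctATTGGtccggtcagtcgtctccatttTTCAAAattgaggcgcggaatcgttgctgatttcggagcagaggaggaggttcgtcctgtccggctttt
Cenpe: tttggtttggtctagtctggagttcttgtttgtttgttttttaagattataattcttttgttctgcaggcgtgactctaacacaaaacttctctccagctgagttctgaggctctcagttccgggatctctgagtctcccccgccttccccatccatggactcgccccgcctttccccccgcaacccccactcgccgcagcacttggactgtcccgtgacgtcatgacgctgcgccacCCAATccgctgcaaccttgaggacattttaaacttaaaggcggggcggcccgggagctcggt
Mcm5: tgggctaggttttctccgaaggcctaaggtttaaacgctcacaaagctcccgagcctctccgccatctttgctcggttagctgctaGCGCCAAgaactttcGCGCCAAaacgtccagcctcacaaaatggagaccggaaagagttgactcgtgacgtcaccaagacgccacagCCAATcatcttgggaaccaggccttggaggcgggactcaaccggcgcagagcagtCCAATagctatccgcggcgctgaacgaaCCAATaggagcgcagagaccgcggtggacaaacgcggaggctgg
Mcm6: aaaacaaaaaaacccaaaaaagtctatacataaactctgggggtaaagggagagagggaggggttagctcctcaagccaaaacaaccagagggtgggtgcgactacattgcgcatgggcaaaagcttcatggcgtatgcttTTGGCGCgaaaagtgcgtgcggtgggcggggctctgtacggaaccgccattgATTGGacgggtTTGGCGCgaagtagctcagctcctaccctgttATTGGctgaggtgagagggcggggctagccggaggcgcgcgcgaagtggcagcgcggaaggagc
Ezh2: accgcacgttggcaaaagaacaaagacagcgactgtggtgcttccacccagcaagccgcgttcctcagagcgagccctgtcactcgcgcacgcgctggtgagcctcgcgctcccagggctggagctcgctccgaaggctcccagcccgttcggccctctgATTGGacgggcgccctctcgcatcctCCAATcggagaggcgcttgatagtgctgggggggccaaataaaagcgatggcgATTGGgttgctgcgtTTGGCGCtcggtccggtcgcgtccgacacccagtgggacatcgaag

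Over the 27025 genes with a promoter in the RefSeq table, 20.2% held a CHR match, 41.1% a CCAAT box and 7.79% an E2F match. Of the spindle motor and cytokinesis genes that had a promoter there, 22 of 28 (78.6%) held a CHR match and 14.3% an E2F match. The replication fork genes were the other way round, with a CHR match in 9.09% and an E2F match in 14 of 22 (63.6%). Among origin licensing genes 9 of 16 (56.3%) held an E2F match and 31.3% a CHR match. The other mitosis lists held a CHR match less often than the spindle list, in 46.7% of mitotic cyclins and kinases, 39.3% of kinetochore genes and 33.3% of the anaphase promoting list. Motifs did not part all lists this way. Condensin and cohesin genes held a CHR match in 50% and an E2F match in 66.7%. Basal keratinocyte genes held a CHR match in 4 of 9 cases (44.4%) and spinous genes in 30%. A CCAAT box was held by 86.7% of mitotic cyclins and kinases, 71.4% of kinetochore, 64.3% of spindle and 68.8% of licensing genes, and by 11 of 22 fork genes. These are counts of letters in 300 bases, not of bound sites.

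In Eed iKO-D 289511009 UMIs were counted over all barcodes, and in Ctrl-D 120500892. The labels give a target of 8013 to 19511 captured cells. Cycling cells had a median of 67999 UMIs and 7790 genes in Eed iKO-D, against 24896 UMIs and 4830 genes in Ctrl-D. Within each library they were deeper than non-cycling cells, whose median was 38524 UMIs in Eed iKO-D and 14852 in Ctrl-D. The part of depth in the absence of Mki67 and Top2a UMIs was not separated cell by cell. Values after thinning every cell to 5000 UMIs are given beside the shares and the medians of the origin licensing and ribosome biogenesis lists. Other list medians are given at full depth only. Thinning took the non-cycling cells from 522 to 1160 in Eed iKO-D and from 1684 to 2301 in Ctrl-D. The libraries shared 49 barcodes, among them those of 0 cycling cells of Eed iKO-D and 8 of Ctrl-D. The doublet caller Scrublet marked 0 of 21484 cells in Eed iKO-D, a failed run, and 129 of 7522 in Ctrl-D, 15 of them cycling.

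The label keratinocyte held against genes that did not choose the cells. Trp63, the master regulator of stratified epithelia, stood at 391 CPM (a gene's UMIs summed over the cells of a group, scaled in the usual way to counts-per-million of all UMIs there) in cycling cells of Eed iKO-D and 262 CPM in those of Ctrl-D, against 27.2 and 133 CPM in the keratin-poor cells (Krt5 and Krt14 together under 20 per 10000) of Eed iKO-D and Ctrl-D. Col17a1, a hemidesmosome collagen, was at 969 and 536 CPM in the cycling cells of Eed iKO-D and Ctrl-D, against 50.1 and 30.1 CPM in their keratin-poor cells. Markers of other lineages were not absent. The 6 fibroblast markers summed to 787 CPM in cycling cells of Eed iKO-D and 19.9 CPM in those of Ctrl-D, the 10 leukocyte markers to 47.7 and 19.2 CPM, the 4 endothelial markers to 30.3 and 3.33 CPM, and the 4 melanocyte markers to 1.88 and 28.0 CPM. Tyrp1 was at 0 in cycling cells of Eed iKO-D, and C1qb, Kdr and all 3 mast cell markers were at 0 in those of Ctrl-D. At least 3 UMIs of other-lineage markers were found in 554 of 562 cycling cells of Eed iKO-D and 93 of 784 of Ctrl-D. Non-cycling cells had fibroblast sums of 929 CPM in Eed iKO-D and 63.6 CPM in Ctrl-D. Cells rich in S100a8 and S100a9, which should not divide, had a Mki67 or Top2a UMI in 205 of 516 barcodes of Eed iKO-D (39.7%, median 5337 UMIs) and 3 of 99 of Ctrl-D (3.03%, median 1331 UMIs). At or over the cut that defines cycling were 4.26% of these barcodes in Eed iKO-D and 3.03% in Ctrl-D. These barcodes were not held to the minimum of 5000 UMIs. In Ctrl-D all 3 with a Mki67 or Top2a UMI passed the cut, since at a depth of 1331 UMIs any such UMI does. The shares therefore cannot show how often cells that do not divide would pass the full rule for cycling keratinocytes.

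Eed itself was read at 54.9 CPM (interval 52.7 to 57.2) in cycling cells of Eed iKO-D and 66.0 CPM (62.6 to 69.5) in cycling cells of Ctrl-D, a ratio of 0.832. Non-cycling cells had 37.5 CPM in Eed iKO-D and 43.3 CPM in Ctrl-D. The libraries count the 3′ ends of transcripts, and the labels do not say which exons the floxed allele loses, so these reads do not check the deletion (Eed spans chr7:89954654-89980983, mm10, minus strand). Ezh2 was lower in Eed iKO-D, at 79.1 CPM in its cycling cells against 134 CPM in those of Ctrl-D, a ratio of 0.589 (0.56 to 0.619). Suz12, which holds the complex together, ran the other way at 139 CPM in Eed iKO-D and 95.9 CPM in Ctrl-D. In cycling cells the median log2 ratio over Ctrl-D was 0.34 for all genes. It was 0.40 for genes of 20 to 50 kb, and Suz12 spans 41.0 kb. Ezh1, the alternative catalytic subunit, was low in all groups, at 10.6 CPM in cycling cells of Eed iKO-D and 7.87 CPM in those of Ctrl-D. The accessory subunit Jarid2 was the member furthest above Ctrl-D, with 507 CPM in Eed iKO-D and 194 CPM in Ctrl-D. Jarid2 spans 192.2 kb, and genes of 100 kb or more had a median log2 ratio of 0.75 over Ctrl-D in cycling cells. The part of gene length in the ratios of Suz12 and Jarid2 was not tested. In neither library was Eed missing from cycling cells, and the level of Ezh2 differed more between libraries than that of Eed.

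Cycling cells made up 25.8% of the 2182 keratinocytes of the filter in Eed iKO-D (562 cells, interval 23.9 to 27.7%) and 20.6% of the 3810 in Ctrl-D (784 cells, 19.3 to 21.9%). Thinned to 5000 UMIs per cell, the shares were 25.3% in Eed iKO-D and 20.4% in Ctrl-D. Cells with Xist and no Y-linked UMI, and cells with Y-linked UMIs and no Xist, were both present in each library. Of the Xist cells 26.5% were cycling in Eed iKO-D and 19.6% in Ctrl-D, and of the Y-linked cells 29.3% and 24.2%. In both kinds of cell the share was the higher in Eed iKO-D, though the intervals of the Y-linked cells overlapped (24.6 to 34.3% in Eed iKO-D, 21.8 to 26.7% in Ctrl-D). The remaining keratinocytes had some Mki67 or Top2a below the cut, 50.3% in Eed iKO-D and 35.2% in Ctrl-D, or none at all, 23.9% and 44.2%. After thinning, the share with none was 53.2% in Eed iKO-D and 60.4% in Ctrl-D.

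**Figure D1:**
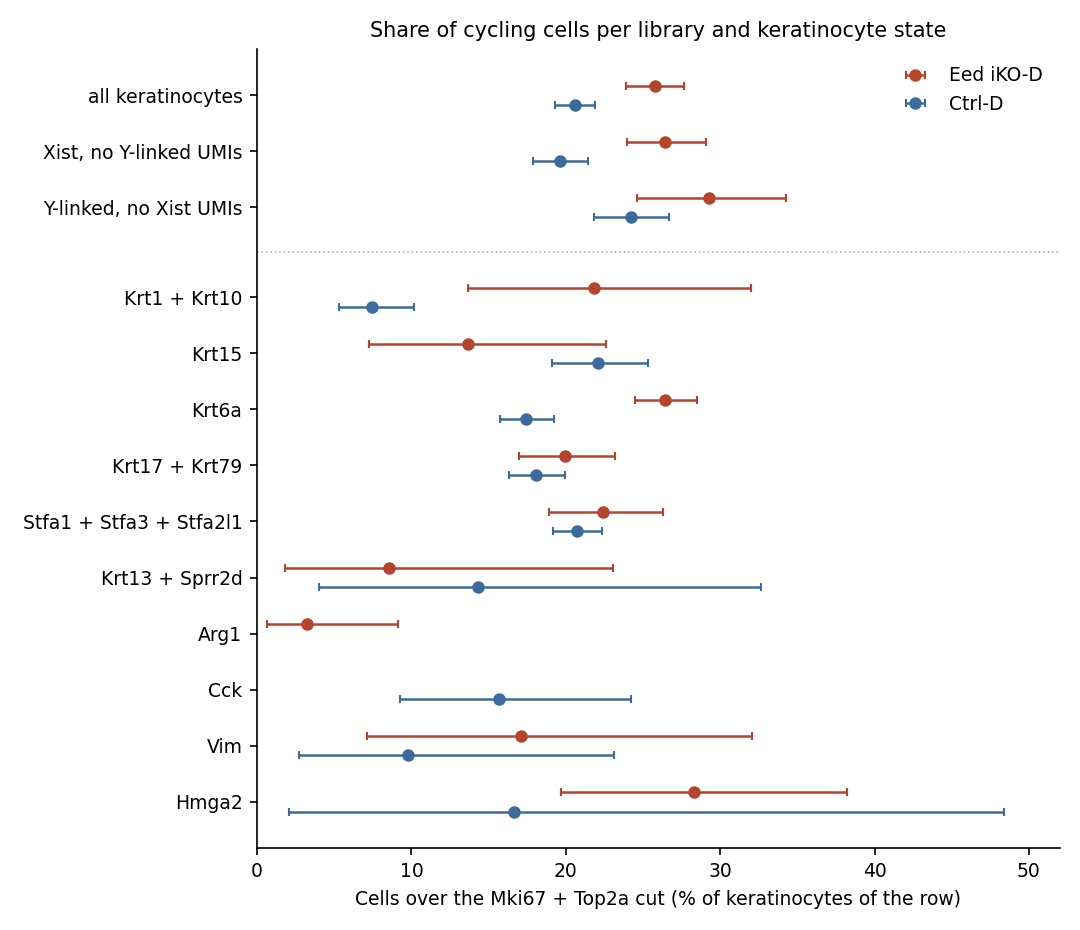
Share of cycling cells (x axis, percent of the keratinocytes of each row) in Eed iKO-D (red) and Ctrl-D (blue), for all keratinocytes, for cells with Xist or Y-linked UMIs, and for cells with 10 or more UMIs per 10000 of the genes named at left. Points are shares and bars exact 95% binomial intervals that cover counting error only. Eed iKO-D stood at 25.8% and Ctrl-D at 20.6% over all keratinocytes, and in Krt1 and Krt10 cells at 21.8% and 7.47%.

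Nearly every cycling cell held both defining transcripts, 98.4% of those in Eed iKO-D and 96.6% of those in Ctrl-D. Mki67 and Top2a together had a median of 10.6 per 10000 UMIs in Eed iKO-D and 9.71 in Ctrl-D, and reached 39.7 and 55.1 at the most. Just inside the cut, at 5 to 6 per 10000, lay 65 cells of Eed iKO-D and 94 of Ctrl-D. Just outside, at 4 to 5 per 10000, lay 60 and 121. The summed mitosis transcripts described next were at a median of 17.2 per 10000 UMIs inside and 13.9 outside in Eed iKO-D, and 22.3 inside and 22.2 outside in Ctrl-D. The cut thus ran through a continuous range of cells.

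Cycling cells were described by their summed S phase and mitosis transcripts. For each cell, UMIs of 30 S phase genes (such as Ccne2, Cdc6, Mcm2 to Mcm7, Pcna and Rrm2) and of 30 mitosis genes (such as Ccnb1, Cdc20, Cenpf, Plk1 and Ube2c) were summed per 10000. The mitosis sum was the larger in 407 of 562 cycling cells of Eed iKO-D (72.4%, interval 68.5 to 76.1%) and 583 of 784 of Ctrl-D (74.4%, 71.2 to 77.4%), or 69.4% and 74.4% after thinning. The sums lay within a narrow margin of each other in 60 cells of Eed iKO-D and 67 of Ctrl-D. The median mitosis sum was lower in Eed iKO-D, at 27.7 per 10000 UMIs against 41.5 in Ctrl-D, and the median S phase sum was 12.3 in Eed iKO-D and 14.5 in Ctrl-D. In cells below the cut the mitosis sum was the larger in 23.7% in Eed iKO-D and 34.7% in Ctrl-D, and in non-cycling cells in 3.26% and 10.9%. Mki67 and Top2a, which chose the cells, were higher in cycling cells with the larger mitosis sum. Mki67 was at 470 CPM in these and 325 CPM in the other cycling cells of Eed iKO-D. In Ctrl-D it was at 448 and 324 CPM. The shares therefore describe the chosen cells, not the phases of all dividing keratinocytes.

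**Figure D2:**
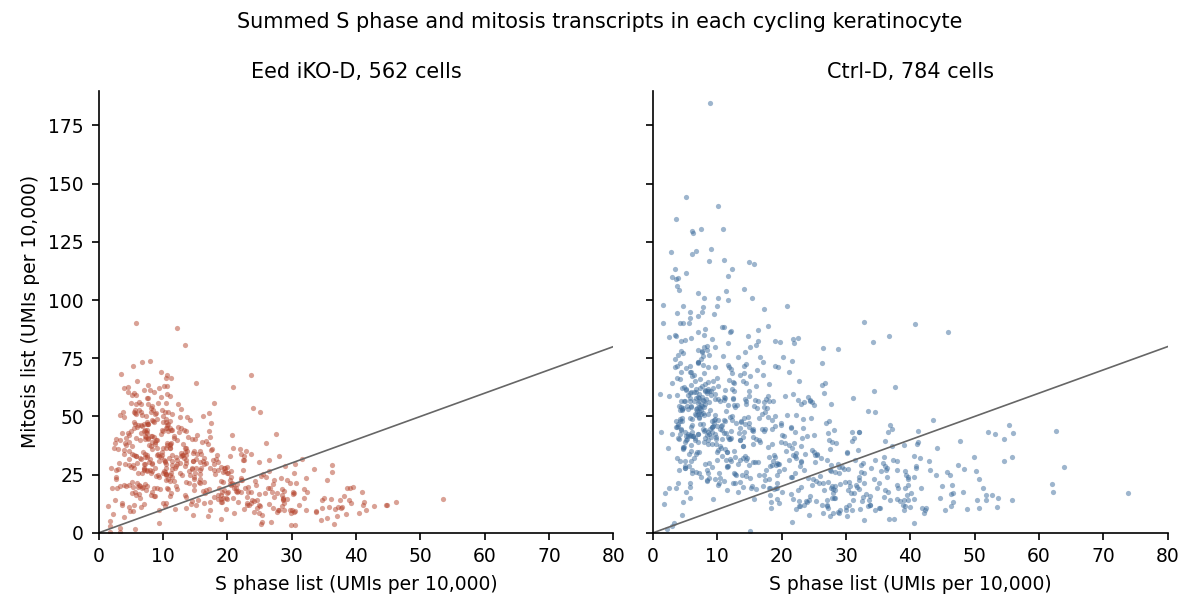
Summed UMIs per 10000 of the S phase list (x axis) and the mitosis list (y axis) in each cycling cell of Eed iKO-D (left, 562 cells) and Ctrl-D (right, 784 cells), with the line of equal sums. Most cells lie above the line, 407 in Eed iKO-D and 583 in Ctrl-D.

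Among genes outside both phase lists, some differed between the leaning groups alike in each library and others did not. Hist1h1b, a linker histone made during DNA replication, was at 1523 CPM in S-leaning and 568 CPM in mitosis-leaning cells of Eed iKO-D, and at 1266 and 507 CPM in those of Ctrl-D. E2f1, an activator of S phase genes, was at 15.4 CPM in S-leaning and 2.43 CPM in mitosis-leaning cells of Eed iKO-D, against 25.5 and 3.78 CPM in Ctrl-D. Cdkn3, a phosphatase of CDKs, showed the opposite, with 6.62 CPM in S-leaning and 29.0 CPM in mitosis-leaning cells of Eed iKO-D and 10.2 and 69.6 CPM in Ctrl-D. Ezh2 was the higher in S-leaning cells, at 119 against 65.3 CPM in mitosis-leaning cells of Eed iKO-D and at 195 against 115 CPM in Ctrl-D. Eed followed with a smaller gap, at 63.0 against 52.1 CPM in Eed iKO-D and 80.2 against 61.5 CPM in Ctrl-D. Smc2, a condensin subunit, hardly differed, at 242 against 244 CPM in Eed iKO-D and 257 against 269 CPM in Ctrl-D. Krt10 ran in opposite directions, at 47.7 CPM in S-leaning and 68.1 CPM in mitosis-leaning cells of Eed iKO-D, against 306 and 173 CPM in Ctrl-D. Smaller gaps of opposite direction were seen for Ccnd1 (277 and 309 CPM in Eed iKO-D, 133 and 128 CPM in Ctrl-D) and Cdkn2c (17.3 and 14.2 CPM, 29.9 and 31.5 CPM). Leaning groups were of like depth, with medians of 64033 UMIs in S-leaning and 71059 in mitosis-leaning cells of Eed iKO-D, and 23869 and 25287 in Ctrl-D.

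Set against non-cycling cells, 2826 of 16434 genes (17.2%) were at least 1.5 times higher in cycling cells of Eed iKO-D and 2314 (14.1%) at least 1.5 times lower. In Ctrl-D 2024 of 14575 (13.9%) were higher and 1473 (10.1%) lower. Genes counted here had at least 20 UMIs in both groups of cells together, and log2 ratios have 0.5 UMI added to each sum. The median log2 ratio over all genes was 0.06 in Eed iKO-D and 0.10 in Ctrl-D. Scaled by the median ratio instead, the balance turned, with 2533 higher and 2599 lower in Eed iKO-D and 1620 and 1798 in Ctrl-D. Of 14199 genes measured in both libraries, 1172 (8.25%) were higher in cycling cells of both, 755 (5.32%) lower in both, and 150 (1.06%) higher in one and lower in the other. Those 1172 were 56.4% of the genes higher in Eed iKO-D and 59.9% of those higher in Ctrl-D. Beside these shares the counts for cell cycle lists below describe what the choice of cells by Mki67 and Top2a brought with it.

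Genes that prepare and copy DNA were higher in cycling cells of both libraries. Of 22 origin licensing and helicase genes, 21 were at least 1.5 times higher in Eed iKO-D and 22 in Ctrl-D, with median log2 ratios of 1.98 and 1.79. Mcm5, a subunit of the replicative helicase, was at 40.8 CPM in cycling and 5.97 CPM in non-cycling cells of Eed iKO-D, a ratio of 6.84, and at 47.9 and 11.9 CPM in Ctrl-D, a ratio of 4.03. Mcm10 and Cdc45, which fire the helicase, reached ratios of 15.7 and 16.0 in Eed iKO-D and 15.6 and 11.1 in Ctrl-D. The Mcm2 to Mcm7 ratios ran from 3.42 to 6.84 in Eed iKO-D and from 2.13 to 4.03 in Ctrl-D, but after thinning the list's median log2 ratio was 1.28 in Eed iKO-D and 1.31 in Ctrl-D. All 27 replication fork genes were higher in both libraries, with medians of 1.95 in Eed iKO-D and 1.65 in Ctrl-D. Clspn, an adaptor of the replication checkpoint at the fork, was highest among them, at 45.9 CPM in cycling and 2.40 CPM in non-cycling cells of Eed iKO-D and 68.9 and 2.80 CPM in Ctrl-D. Pcna, the sliding clamp, was at 111 against 45.3 CPM in Eed iKO-D and 149 against 58.9 CPM in Ctrl-D. In the deoxynucleotide supply 12 of 15 genes stood higher in Eed iKO-D and 10 in Ctrl-D, led by Rrm2 (ratios 7.98 and 7.83), Rrm1 (7.09 and 6.93) and Tk1 (7.16 and 8.77), while Nme1 and Paics stayed under 1.5-fold in both.

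Spindle and mitotic kinase genes had the largest median ratios of the lists. All 33 spindle motor and cytokinesis genes were higher in cycling cells of both libraries, with median log2 ratios of 5.05 in Eed iKO-D and 5.01 in Ctrl-D. Kif11, the motor that pushes spindle poles apart, was at 110 CPM in cycling and 2.57 CPM in non-cycling cells of Eed iKO-D, and at 116 and 1.42 CPM in Ctrl-D. Prc1, which bundles microtubules of the central spindle, was at 247 against 5.14 CPM in Eed iKO-D and 370 against 9.56 CPM in Ctrl-D. Mitotic cyclins and kinases had medians of 5.01 in Eed iKO-D, with 20 of 21 higher, and 4.96 in Ctrl-D, with 21 of 21. Plk1, a kinase of mitotic entry, stood at 79.5 against 0.610 CPM in Eed iKO-D and 63.5 against 0.319 CPM in Ctrl-D, and Cdk1 at 145 against 2.14 and 186 against 3.65 CPM. Wee1, the kinase that holds Cdk1 inactive, was the exception in Eed iKO-D, at 56.5 against 52.7 CPM, while Ctrl-D had 54.9 against 27.0 CPM. Kinetochore and centromere genes were higher in 34 of 34 cases in Eed iKO-D and 33 of 34 in Ctrl-D. Cenpf and Cenpe, which link kinetochores to microtubules, had ratios of 97.5 and 95.4 in Eed iKO-D and 96.5 and 75.3 in Ctrl-D. Of 16 genes of the anaphase promoting complex and its checkpoint, 11 were higher in Eed iKO-D and 12 in Ctrl-D. The ubiquitin-conjugating enzyme Ube2c led them, at 263 against 4.44 CPM in Eed iKO-D and 527 against 9.17 CPM in Ctrl-D, while the core subunits Anapc2, Cdc16 and Cdc26 stayed under 1.5-fold in both. For condensin and cohesin 13 of 17 were higher in Eed iKO-D and 14 in Ctrl-D, led by Esco2, the cohesin acetyltransferase (28.0 against 0.174 CPM, and 66.7 against 0.531 CPM), while the cohesin loader Nipbl had ratios of 0.985 and 1.22.

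**Figure D3:**
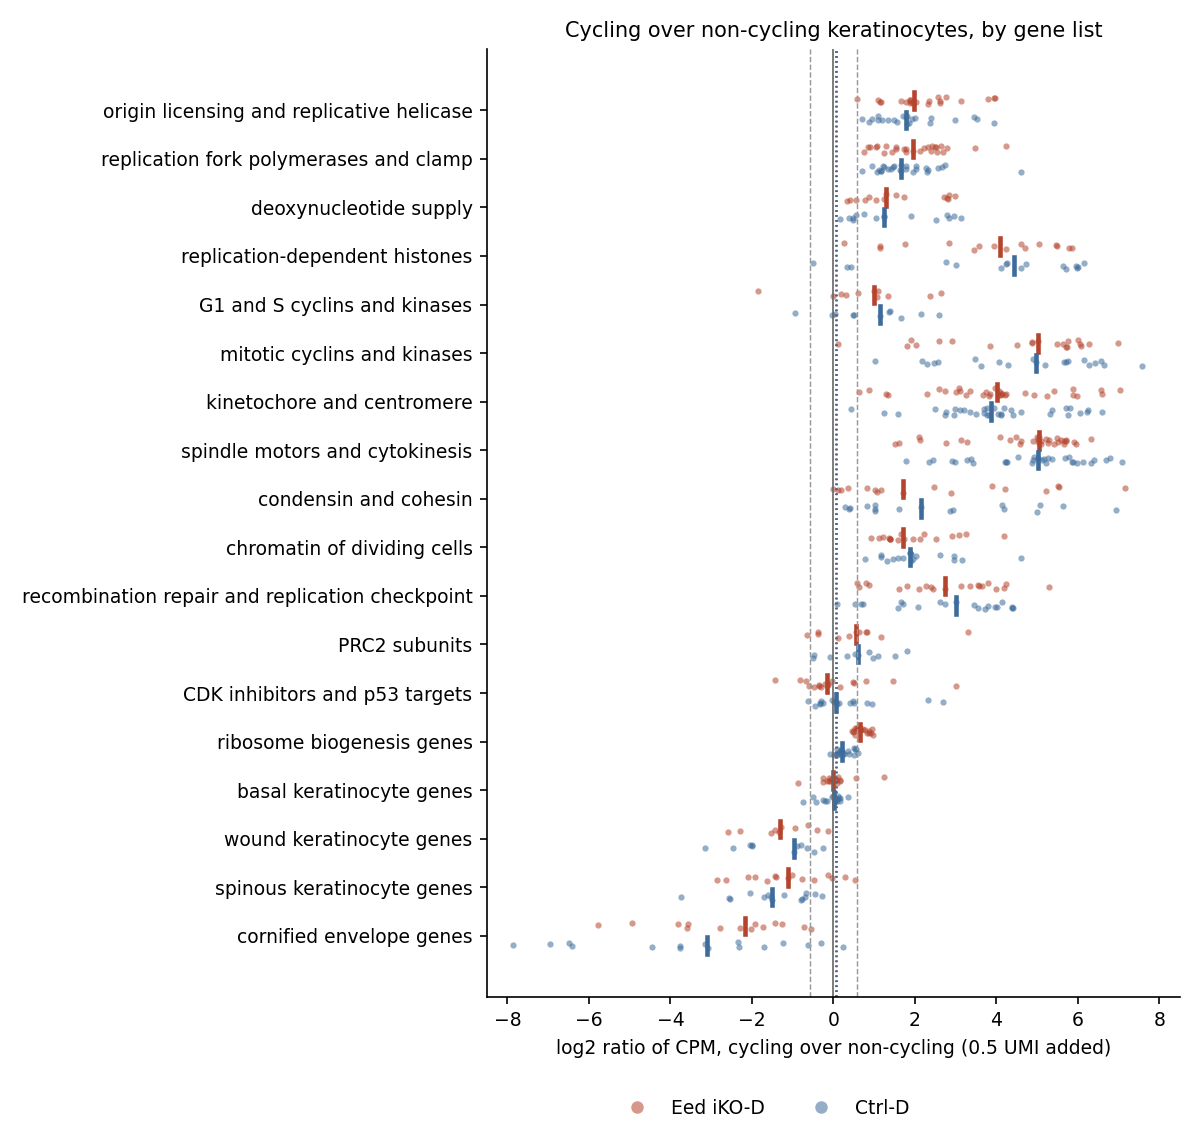
Log2 ratios of CPM in cycling over non-cycling cells (x axis, 0.5 UMI added) for the genes of 18 lists, in Eed iKO-D (red) and Ctrl-D (blue). Each point is a gene, thick bars are list medians, dashed lines mark 1.5-fold and dotted lines the medians of all genes (0.06 and 0.10). Medians of the spindle and mitotic kinase lists sit near 5, and those of the spinous, wound and cornified lists lie below 0 in both libraries.

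Histone and chromatin genes followed. Of replication-dependent histones 15 of 16 were higher in Eed iKO-D and 13 in Ctrl-D, with medians of 4.09 and 4.43. Hist1h1b was at 812 CPM in cycling and 14.8 CPM in non-cycling cells of Eed iKO-D, and at 690 and 9.74 CPM in Ctrl-D. Most histone messages carry no poly(A) tail, so the counts of a poly(A)-primed library are not their full level, and copies of near-identical sequence can share reads. Hist1h2bc, a histone gene also expressed outside S phase, was at 116 against 96.2 CPM in Eed iKO-D and 92.7 against 131 CPM in Ctrl-D. All 18 genes of the list for the chromatin of dividing cells found in the files were higher in both libraries. Hmgb2, a chromatin protein that binds bent DNA, was at 545 against 64.0 CPM in Eed iKO-D and 1181 against 133 CPM in Ctrl-D, and the variant histone H2afz at 822 against 214 and 1838 against 503 CPM. In repair and the replication checkpoint 20 of 21 were higher in Eed iKO-D and 19 in Ctrl-D. Brca1, which acts in homologous recombination, had a ratio of 12.0 in Eed iKO-D and 21.2 in Ctrl-D.

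Among transcription factors of the cycle, Foxm1, the activator of mitosis genes, was at 21.6 CPM in cycling and 0.784 CPM in non-cycling cells of Eed iKO-D, and at 25.4 and 0.744 CPM in Ctrl-D. Mybl2, its partner in the MuvB complex, was at 24.5 against 1.66 CPM and 17.5 against 1.49 CPM. The repressors E2f7 and E2f8 had ratios of 2.03 and 3.05 in Eed iKO-D and 3.97 and 6.57 in Ctrl-D. Rb1 and Rbl2, pocket proteins that restrain E2F, stayed under 1.5-fold in both libraries, while the third one, Rbl1, had ratios of 3.20 and 4.28. Myc was the lower in cycling cells, at 37.1 against 54.6 CPM in Eed iKO-D and 39.8 against 54.5 CPM in Ctrl-D. Over the list, 12 of 20 genes stood higher in Eed iKO-D and 13 of 21 in Ctrl-D.

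Among G1 cyclins the D-type ones did not mark the cycling cells. Ccnd1, which carries growth factor signals to the cell cycle, was at 301 CPM in cycling and 302 CPM in non-cycling cells of Eed iKO-D, and at 129 and 133 CPM in Ctrl-D. Ccnd2 was lower in cycling cells, at 30.1 against 109 CPM in Eed iKO-D and 54.7 against 105 CPM in Ctrl-D. Ccne1 and Ccne2, which start S phase, were higher, with ratios of 2.54 and 5.19 in Eed iKO-D and 3.17 and 4.48 in Ctrl-D. Each of these orders was present in both libraries, and the level of Ccnd1 differed between libraries rather than with cycling.

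Among CDK inhibitors, Cdkn2a, which gives rise to the inhibitor p16Ink4a and to p19Arf and is a known PRC2 target, was at 54.7 CPM in cycling cells of Eed iKO-D against 147 CPM in its non-cycling cells, a ratio of 0.371. In Ctrl-D it was at 43.9 against 55.6 CPM, a ratio of 0.790. Its level in non-cycling cells of Eed iKO-D was 2.65 times that of Ctrl-D. In Y-linked cells the log2 ratio of Eed iKO-D over Ctrl-D in cycling cells was 1.54, and in Xist cells 0.04. Cdkn2b, its neighbour on chromosome 4, was at 27.0 against 47.8 CPM in Eed iKO-D and 15.8 against 24.2 CPM in Ctrl-D. Cdkn2c, another inhibitor of the same family, was higher in cycling cells, at 15.0 against 1.83 CPM and 31.1 against 4.82 CPM. Cdkn1a, the inhibitor induced by p53, was at 228 against 293 CPM in Eed iKO-D and 243 against 230 CPM in Ctrl-D, and Cdkn1b at 56.3 against 39.3 and 50.8 against 26.6 CPM. Cdkn1c was at or under 3.52 CPM in every group. Of the 18 genes of the list of CDK inhibitors and p53 targets, 3 were higher and 4 lower in cycling cells of Eed iKO-D, and 4 higher and 1 lower in Ctrl-D. Among all genes 17.2% were higher and 14.1% lower in Eed iKO-D, and 13.9% and 10.1% in Ctrl-D. With 18 genes in the list, its counts are not read as a result about the list. The median log2 ratio, -0.17 in Eed iKO-D and 0.07 in Ctrl-D, lay close to that of all genes.

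**Figure D4:**
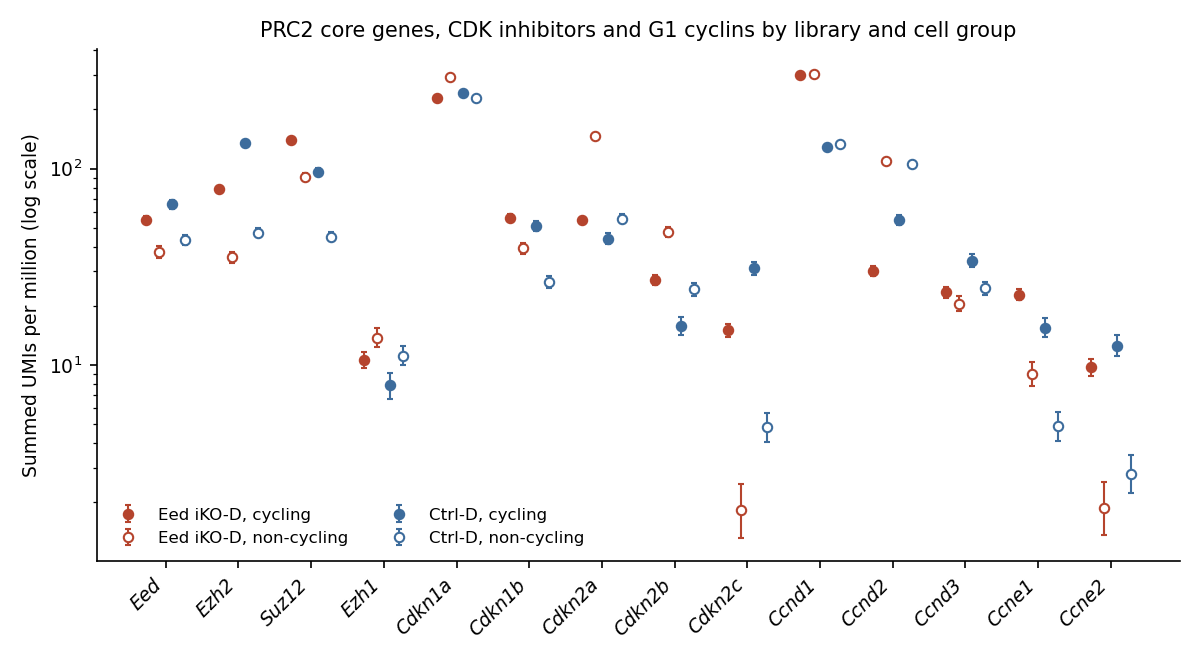
CPM on a log axis of PRC2 core genes, CDK inhibitors and G1 cyclins in cycling (filled) and non-cycling cells (open) of Eed iKO-D (red) and Ctrl-D (blue), with exact 95% Poisson intervals of the summed counts. Ezh2 and Cdkn2c are higher in cycling cells of both libraries, Ccnd1 differs by library, and Cdkn2a is highest in non-cycling cells of Eed iKO-D at 147 CPM.

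More PRC2 than PRC1 genes were higher in cycling cells. Of 11 PRC2 genes 5 were higher and 1 lower in cycling cells of Eed iKO-D, and 6 higher and 0 lower in Ctrl-D. Over all genes 17.2% were higher and 14.1% lower in Eed iKO-D, and 13.9% and 10.1% in Ctrl-D. The PRC2 median log2 ratio was 0.55 in Eed iKO-D and 0.61 in Ctrl-D, against 0.06 and 0.10 for all genes. After Phf19, which rested on few UMIs, Ezh2 had the largest ratios, 2.24 in Eed iKO-D (79.1 against 35.3 CPM) and 2.84 in Ctrl-D (134 against 47.2 CPM). The histone-binding subunits Rbbp4 and Rbbp7 had ratios of 1.74 and 1.77 in Eed iKO-D and 1.84 and 1.98 in Ctrl-D. Ezh1 went the other way, at 0.770 and 0.705, as did Jarid2 in Eed iKO-D, at 507 against 663 CPM. Of 19 PRC1 genes none was higher and 1 lower in Eed iKO-D, and 1 higher and none lower in Ctrl-D, with medians of 0.18 and 0.255. Pcgf5 was that lower one, at 7.41 against 17.1 CPM in Eed iKO-D, and was at 31.1 against 27.5 CPM in Ctrl-D.

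Ribosome biogenesis genes differed between the libraries. In Eed iKO-D 13 of 20 were at least 1.5 times higher in cycling cells, with a median log2 ratio of 0.66, and in Ctrl-D 1 of 20, with a median of 0.22. Ncl, the nucleolar protein nucleolin, was at 1274 CPM in cycling and 675 CPM in non-cycling cells of Eed iKO-D, and at 1234 and 813 CPM in Ctrl-D. Nolc1, a nucleolar phosphoprotein, was at 123 against 62.2 CPM and 126 against 86.6 CPM. The median log2 ratio of Eed iKO-D over Ctrl-D was 0.06 in cycling and -0.35 in non-cycling cells. Both lay below the medians of all genes, 0.34 in cycling and 0.36 in non-cycling cells. The median of cycling over non-cycling cells was 0.75 in Eed iKO-D and 0.28 in Ctrl-D for Xist cells, and 0.72 and 0.26 for Y-linked cells. After thinning it fell to 0.45 in Eed iKO-D and to 0.06 in Ctrl-D. Ribosomal protein genes themselves took 16.6% of UMIs in cycling and 16.9% in non-cycling cells of Eed iKO-D, and 24.9% and 27.1% in Ctrl-D.

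Differentiation genes were lower in cycling cells and basal genes were not. The counts below stand beside shares over all genes of 17.2% higher and 14.1% lower in Eed iKO-D, and 13.9% and 10.1% in Ctrl-D. Of 16 basal genes 1 was higher and 1 lower in Eed iKO-D, and 0 and 1 in Ctrl-D, with medians of 0.00 and 0.02. Of 15 spinous genes 10 were at least 1.5 times lower in Eed iKO-D and 13 in Ctrl-D. Krt10 was at 62.9 CPM in cycling and 194 CPM in non-cycling cells of Eed iKO-D, and at 205 and 597 CPM in Ctrl-D. Krt1 was at 132 against 285 CPM in Eed iKO-D and 159 against 921 CPM in Ctrl-D. In Xist cells of Eed iKO-D, however, the Krt1 log2 ratio was 0.11 and that of Krt10 -0.40. Cornified envelope genes were lower in 13 of 14 cases in Eed iKO-D and 14 of 16 in Ctrl-D. Sprr1a was at 34.5 against 417 CPM in Eed iKO-D and 22.6 against 497 CPM in Ctrl-D, and Cnfn at 2.15 against 66.6 and 1.16 against 147 CPM. The wound keratins Krt16 and Krt6b, of hyperproliferative epidermis, were also the lower in cycling cells, Krt16 at 1847 against 4542 CPM in Eed iKO-D and 841 against 3365 CPM in Ctrl-D. Other genes that were far lower in cycling cells of both libraries were Sprr2d and Sprr2f of the cornified envelope, S100a9, Krt79 and Wfdc18. S100a9 was at 86.3 against 519 CPM in Eed iKO-D and 95.7 against 524 CPM in Ctrl-D, and Krt79, a keratin of the follicle's upper part, at 4.39 against 49.8 and 71.5 against 397 CPM.

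The share of cycling cells among keratinocytes high in spinous keratins was larger in Eed iKO-D. Of cells with 10 or more UMIs of Krt1 and Krt10 per 10000, 19 of 87 were cycling in Eed iKO-D (21.8%, interval 13.7 to 32.0%) and 36 of 482 in Ctrl-D (7.47%, 5.29 to 10.2%). Of keratinocytes below that level 25.9% were cycling in Eed iKO-D and 22.5% in Ctrl-D. Median depths were 47272 UMIs in the spinous keratin cells of Eed iKO-D and 21204 in those of Ctrl-D, and thinning left the shares at 20.7% and 7.47%. Counted from the other side, 3.38% of cycling cells in Eed iKO-D (2.05 to 5.23%) and 4.59% of those in Ctrl-D (3.24 to 6.30%) held spinous keratins at that level. These intervals overlapped. Of non-cycling cells 4.22% in Eed iKO-D and 17.8% in Ctrl-D did. For Krt15, a keratin of quiescent basal and bulge cells, the share of cycling cells was the smaller in Eed iKO-D. There 12 of 88 Krt15 cells were cycling (13.6%, 7.25 to 22.6%), and in Ctrl-D 160 of 724 (22.1%, 19.1 to 25.3%). Thinning brought the first share to 18.2% and the second to 21.7%. For Krt6a, a wound keratin, the shares were 26.5% at or over and 21.5% under the limit in Eed iKO-D, but 17.4% at or over and 23.6% under it in Ctrl-D. Arg1 cells, found over the limit in Eed iKO-D, were cycling in 3 of 93 cases (3.23%, 0.670 to 9.14%), and Cck cells, found in Ctrl-D, in 16 of 102 (15.7%, 9.24 to 24.2%). Hmga2 cells were cycling in 28 of 99 cases in Eed iKO-D (28.3%) and 2 of 12 in Ctrl-D. Stefin A cells differed less, at 22.4% in Eed iKO-D and 20.7% in Ctrl-D.

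For some genes the ratio of cycling over non-cycling cells was far apart between the libraries. Rad51b, a homologous recombination gene that spans 517.4 kb at chr12:79297282-79814690 (mm10, plus strand), was at 251 CPM in cycling and 377 CPM in non-cycling cells of Eed iKO-D, a ratio of 0.667, and at 96.3 and 22.8 CPM in Ctrl-D, a ratio of 4.22. In Y-linked cells its log2 ratio was 1.30 in Eed iKO-D and 2.53 in Ctrl-D, and in Xist cells -0.81 and 1.84. Arg1, which splits arginine to ornithine and urea, was at 85.5 against 452 CPM in Eed iKO-D and at 1.30 against 3.36 CPM in Ctrl-D. Clu, a secreted chaperone, was at 11.7 against 79.9 CPM in Eed iKO-D and 26.1 against 37.2 CPM in Ctrl-D, and Adgrl2, an adhesion receptor, at 11.3 against 58.4 and 68.8 against 79.6 CPM. Lcn2, an iron-binding protein of inflamed skin, was at 3.11 against 18.9 CPM in Eed iKO-D and 9.67 against 9.06 CPM in Ctrl-D. On the other side were late differentiation genes whose gap was wider in Ctrl-D. Lce3c was at 5.19 against 62.0 CPM in Eed iKO-D and 0.648 against 157 CPM in Ctrl-D, and Crct1 at 4.59 against 11.0 and 2.31 against 212 CPM. In Xist cells of Eed iKO-D, however, the Crct1 log2 ratio was 0.57, higher in cycling cells. The difference between the libraries was not tested for any of them.

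In cycling cells 6093 of 16193 genes (37.6%) were at least 1.5 times higher in Eed iKO-D than in Ctrl-D and 2304 (14.2%) at least 1.5 times lower. Non-cycling cells gave 39.2% higher and 14.9% lower. The median log2 ratio over all genes was 0.34 in cycling and 0.36 in non-cycling cells, so list medians below are best read against that shift. Scaled by the median ratio instead, 4031 genes were higher and 3829 lower in cycling cells. The ratio ran with the length of the gene: its median log2 was -0.16 for 2146 genes spanning under 5 kb and 0.75 for 2281 genes of 100 kb or more in cycling cells, and -0.23 and 0.93 in non-cycling cells. Its part in the values that follow was not tested.

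Replication and mitosis lists were set side by side between the libraries. Medians of Eed iKO-D over Ctrl-D in cycling cells were -0.11 for origin licensing, -0.13 for the fork, -0.04 for mitotic cyclins and kinases and -0.10 for spindle genes, below the 0.34 of all genes in each case. Of 34 kinetochore and centromere genes 2 were higher and 12 lower, among them Cenpw (45.7 CPM in Eed iKO-D, 111 CPM in Ctrl-D) and Cenpa, the histone that marks the centromere (120 and 235 CPM). Chromatin genes of dividing cells were higher in 0 and lower in 7 of 18 cases. Stmn1, which frees tubulin from microtubules, had the lowest ratio among the spindle genes, at 102 CPM in Eed iKO-D against 531 CPM in Ctrl-D, and it was also lower in non-cycling cells, at 14.9 against 70.2 CPM. The list of the anaphase promoting complex and its checkpoint had a median of -0.36, with 3 of 16 genes higher and 5 lower. Hist1h2ap was at 71.0 CPM in Eed iKO-D and 673 CPM in Ctrl-D, while Hist1h1d was at 102 and 54.9 CPM. Hjurp, which loads Cenpa, was an exception that was higher, at 56.9 CPM in Eed iKO-D and 24.5 CPM in Ctrl-D.

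Basal, Ras-MAPK and hypoxia genes stood higher in cycling cells of Eed iKO-D, and hair follicle genes lower. Of 16 basal genes 12 were higher and 2 lower, and the list's median log2 ratio was 1.38 in cycling and 1.14 in non-cycling cells. Lama3 was at 823 CPM in Eed iKO-D and 126 CPM in Ctrl-D, and Igfbp3, an IGF-binding protein, at 400.3 and 42.1 CPM, whereas Krt15 was at 58.2 and 540 CPM. Among 22 Ras-MAPK outputs 17 were higher and 1 lower, with a median of 0.91. Hmga2, an architectural chromatin protein, was at 285 CPM in cycling cells of Eed iKO-D and 22.5 CPM in those of Ctrl-D, and at 155 and 22.7 CPM in non-cycling cells. Areg and Ereg, ligands of the EGF receptor, were at 1013 and 174 CPM in Eed iKO-D against 200 and 31.6 CPM in Ctrl-D. In the list for hypoxia and glycolysis 19 of 22 were higher and 0 lower, with a median of 1.18. Adm, a vasodilator peptide, was at 61.4 CPM in Eed iKO-D and 3.84 CPM in Ctrl-D, and Vegfa, the endothelial growth factor, at 250 and 55.3 CPM. Of 18 hair follicle genes 2 were higher and 14 lower, with a median of -2.64. Lhx2 and Lgr5, which mark follicle stem cells, were at 0.290 and 2.27 CPM in Eed iKO-D and 7.96 and 14.4 CPM in Ctrl-D. In Y-linked cells the medians were 0.74 for basal, 1.10 for Ras-MAPK, 0.67 for hypoxia and -1.13 for hair follicle genes, and in Xist cells 1.40, 1.07, 1.28 and -3.89.

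**Figure D5:**
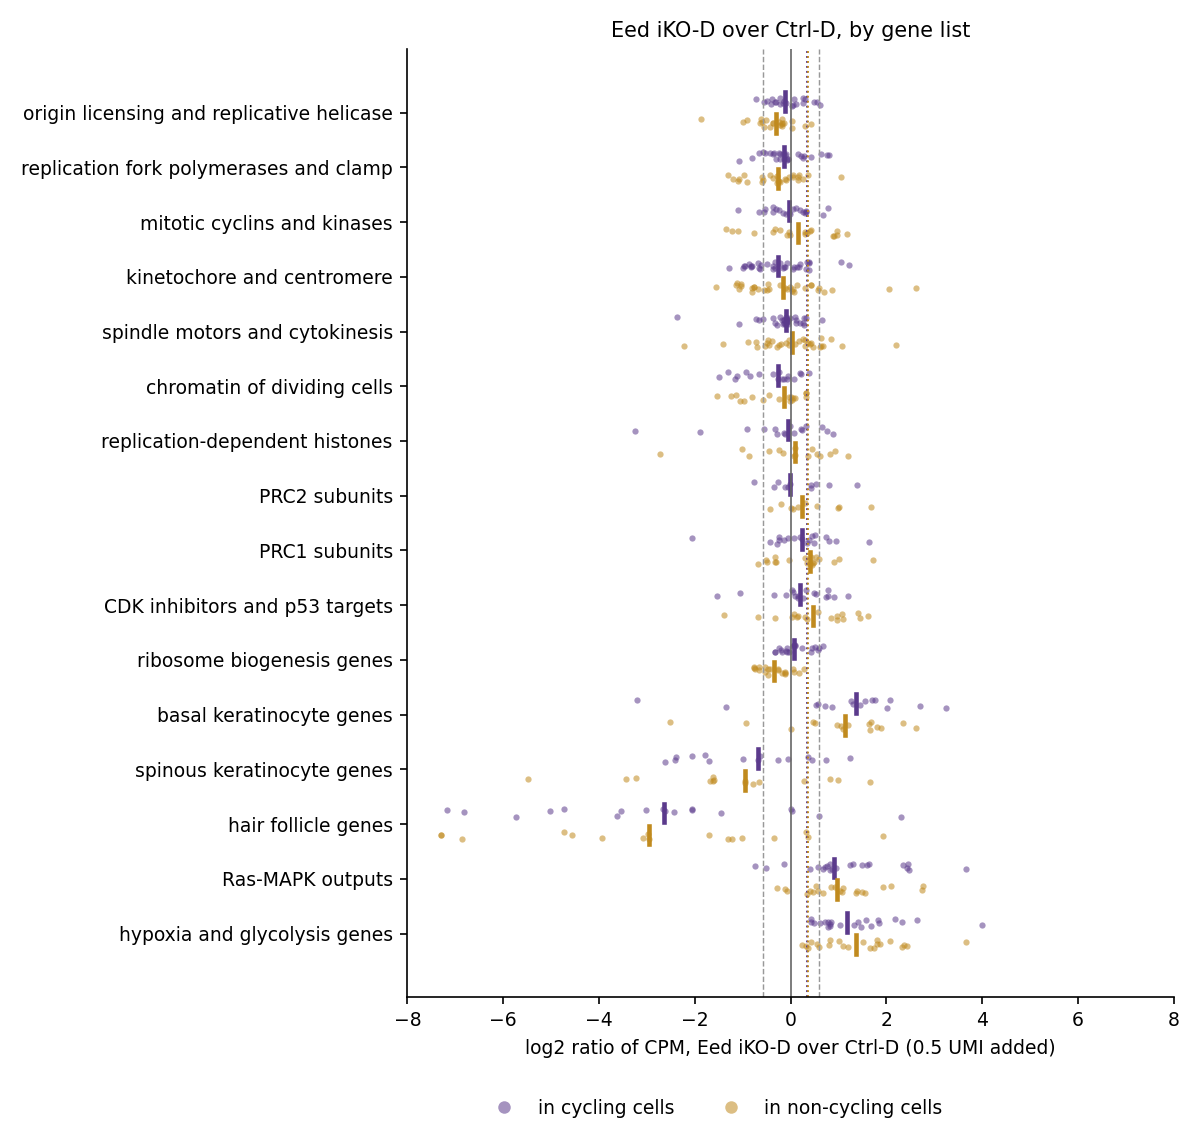
Log2 ratios of CPM in Eed iKO-D over Ctrl-D (x axis, 0.5 UMI added) for the genes of 16 lists, in cycling (purple) and non-cycling cells (ochre). Points are genes, thick bars list medians, dashed lines 1.5-fold and dotted lines the medians of all genes, 0.34 in cycling and 0.36 in non-cycling cells. Medians of the replication and mitosis lists lie near 0 in cycling cells, those of basal, Ras-MAPK and hypoxia lists to the right, and that of hair follicle genes to the left in both kinds of cell.

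The genes with the highest ratios in Eed iKO-D included fibroblast genes. Col1a1 was at 260.2 CPM in its cycling cells and 1.99 CPM in those of Ctrl-D, with 11564 and 1389 CPM in the keratin-poor cells of Eed iKO-D and Ctrl-D, and Col3a1 and Col1a2 had ratios of 124 and 98.1. Without cells that held over 5 other-lineage UMIs per 10000, the Col1a1 log2 ratio was 5.24 in place of 7.01, and whether RNA of fibroblasts accounts for the rest was not tested. Others with high ratios were Fabp4, a fatty acid carrier (398 CPM in Eed iKO-D, 15.7 CPM in Ctrl-D), Arg1 (85.5 and 1.30 CPM), Prl8a9, a prolactin family hormone (90.4 and 0.694 CPM), Stra6, a retinol transporter (108 and 2.78 CPM), and Slc25a21, a mitochondrial carrier (134 and 6.62 CPM). Sulf1, Adam12, Sparcl1 and Spon2 had ratios of 70.4, 66.9, 80.9 and 26.7. Whether RNA of other cell types adds to the levels of these other genes was not tested. All 12 genes chosen for their high ratio were also higher in non-cycling cells, with ratios of 18.5 to 134.

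Among the 12 genes chosen for their low ratio in Eed iKO-D over Ctrl-D, Ccl27a, a keratinocyte chemokine whose symbol is shared by more than 1 gene ID here, was at 7.14 CPM in cycling cells of Eed iKO-D and 247 CPM in those of Ctrl-D. Ccl8, another chemokine, was at 26.0 and 368 CPM. The interferon-induced gene Ifi27l2a was at 4.71 and 175 CPM, Psmb9, a subunit of the immunoproteasome, at 12.5 and 180 CPM, and the MHC class I gene H2-Q7 at 11.2 and 162 CPM. Cck, a peptide hormone, was at 0.0965 and 85.2 CPM. Chil4, Fcgbp, Clca3a2, Stfa1 and Tmem45a had ratios of 0.0548, 0.0492, 0.0569, 0.0619 and 0.0512. In non-cycling cells the ratios of these 12 genes ran from 0.00123 to 0.149, so the gap between libraries was present in both kinds of keratinocyte.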

How the data were processed

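Single-cell 3′ RNA libraries of 2 tumour samples, Eed iKO-D and Ctrl-D, were analysed from the deposited counts of UMIs per gene and barcode. Per the labels' protocols these were made with Cell Ranger 2.1.0; the file headers name 7.1.0 and the submitters' processing notes 8.0, with mm10, so the version is uncertain. No barcode filter beyond the stated one was applied, and 32285 features were read. Groups come from the sample labels.

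Counts were summed over cells of a group and given as CPM with exact Poisson intervals. Ratios have conditional binomial intervals and shares Clopper-Pearson ones, at 95%, covering counting error only. A gene counted as higher or lower at 1.5-fold with at least 20 UMIs in both groups together. With 1 library per group nothing was tested between conditions. The cells and gene lists were chosen with earlier results of these data known.

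Genes were named by rule: 12 highest and 8 lowest by the smaller ratio of both libraries (cycling over non-cycling), 12 highest and 12 lowest of Eed iKO-D over Ctrl-D in cycling cells, 6 each way where the cycling ratios of the libraries were furthest apart, up to 4 at each end of a list, and a set of cell cycle, Polycomb and keratin genes. Each of the first 3 needed at least 50 UMIs in the higher group. Other genes named from the lists were chosen after their values were seen. Xist and Y-linked genes (Ddx3y, Eif2s3y, Uty, Kdm5d) split cells by sex. Phase sums counted as close when within 1.25-fold.

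Alternatives were thinning to 5000 UMIs, other cuts on UMIs, keratins and proliferation genes, other gene filters and scalings, equal weight per cell, and leaving out cells by other-lineage UMIs, doublet call or sex. Tools were numpy 2.4.6, scipy 1.17.1, pandas 2.3.3, scanpy 1.11.5 (Scrublet, expected doublet rate 0.08) and matplotlib 3.10.9. The ratio code was tested on simulated data. Results that need some genes are not reported here.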

Additional observations from a re-analysis of the deposited data

Results flagged for a closer look

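Chil4, a chitinase-like protein of inflamed epithelia, ran in opposite directions with cycling in the libraries. It was at 35.0 CPM in cycling and 56.9 CPM in non-cycling cells of Eed iKO-D, a ratio of 0.615, and at 638 and 406 CPM in Ctrl-D, a ratio of 1.57. With 1 library per group the difference between these ratios was not tested.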

How the results depend on the processing

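No paired analysis was possible because each group is 1 library. Depth limits the split of cells, since the absence of Mki67 and Top2a UMIs depends on it, and no spread between animals could be measured. The share of cycling cells moved with the limits: it was 22.4% in Ctrl-D at a minimum of 10000 UMIs, 13.98% in Eed iKO-D and 10.03% in Ctrl-D at a cut of 10 per 10000, 39.28% and 32.05% at a cut of 2, 29.28% and 24.2% in Y-linked cells, and 33.47% and 31.01% in the deepest cells. That last limit (a minimum depth set for each library) and the one of 5 other-lineage UMIs per 10000 were added after seeing the data. Without cells holding 3 or more other-lineage UMIs, 24 keratinocytes were left in Eed iKO-D, 33.33% of them cycling. That setting gave 811 genes higher and 451 lower in cycling cells of Eed iKO-D, and 3338 higher in Eed iKO-D over Ctrl-D. Its log2 ratios in Eed iKO-D turned to 0.31 for the spinous median, 3.29 for Krt10 and 1.08 for Krt1, and that of Mcm4 over Ctrl-D to -0.55.

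Genes higher and lower in cycling cells of Eed iKO-D numbered 1543 and 1125 after thinning, 6159 and 4968 with no gene filter, 1769 and 1365 at 100 UMIs, and 1005 and 682 with 5 CPM added. In Ctrl-D they numbered 4698 and 4149 with no filter and 825 and 345 with 5 CPM added, and 764 were lower at 100 UMIs. Over Ctrl-D, cycling cells of Eed iKO-D had 3635 genes higher after thinning, 10670 higher and 4232 lower with no filter, 2707 and 1113 with 5 CPM added, and 4031 and 3829 scaled by the median ratio. In Xist cells the log2 ratio in Eed iKO-D was 0.57 for Crct1 and 0.11 for Krt1. In Y-linked cells the ratio over Ctrl-D was -0.49 for Cdkn1c and 0.28 for Ccnd2. Krt15 in Eed iKO-D was at 0.86 in the deepest cells. Their cause was not tested.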
